A study of Mus musculus with 12 samples.

Results

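The genes described here are 9 early-response genes of mouse C2C12 cells: Egr1, Egr2, Egr3, Nr4a1, Nr4a2, Nr4a3, Ier2, Ier3 and Srf. They were taken by name from a count table of 55416 genes, all 9 were found there, and all 9 passed the filter on low counts that left 13250 genes for testing. C2C12 is an established myoblast line from mouse skeletal muscle that withdraws from the cell cycle and fuses into myotubes when serum is lowered. Messenger RNA was measured by RNA sequencing in 12 libraries, 3 biological replicates of each of 4 groups. The groups were cells labelled Mapk14 knockout (KO) switched for 5 days to differentiation medium (DM, DMEM with 2% horse serum), KO-labelled cells kept in growth medium (GM, DMEM with 10% fetal bovine serum), wild-type (WT) cells in DM and WT cells in GM. The sources used here do not say how Mapk14 was edited or whether the KO cells are 1 clone. The labels call the replicates biological without naming separate cultures, so the p-values measure the spread between these samples.

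Early-response genes are switched on within minutes of a growth factor, stretch or stress signal, without new protein synthesis. The signal reaches them through kinases of the ERK and p38 MAPK pathways, which act on serum response factor with its ternary complex partners at CArG boxes, and on CREB at cyclic AMP response elements (CREs). Mapk14 encodes p38 alpha. Egr proteins are zinc finger transcription factors, Nr4a proteins are orphan nuclear receptors, and Srf encodes the serum response factor itself, which also drives actin and other contractile genes in muscle.

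The promoters of 5 genes are shown because the Egr and Nr4a families moved differently in these libraries and Srf was called in no comparison. RefSeq sequences of build GRCm38.p6 covered 6 of the 9 genes and lacked Egr1, Egr3 and Ier2, so Egr2 is the only Egr promoter here. The runs below lie before the RefSeq transcript start and outside the exons that GENCODE M21 annotates. They are read 5′ to 3′ on the gene's strand. Capitals mark matches on either strand to the CArG box, the CRE half-site TGACG and the EGR site GCGNGGGCG; no capitals of different motifs overlap.
Egr2, chr10:67537619-67537868, plus strand: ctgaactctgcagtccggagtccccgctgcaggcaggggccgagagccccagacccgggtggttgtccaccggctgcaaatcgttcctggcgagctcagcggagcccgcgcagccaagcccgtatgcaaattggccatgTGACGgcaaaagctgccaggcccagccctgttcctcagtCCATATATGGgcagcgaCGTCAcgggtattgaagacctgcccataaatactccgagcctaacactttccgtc
Nr4a1, chr15:101266596-101266845, plus strand: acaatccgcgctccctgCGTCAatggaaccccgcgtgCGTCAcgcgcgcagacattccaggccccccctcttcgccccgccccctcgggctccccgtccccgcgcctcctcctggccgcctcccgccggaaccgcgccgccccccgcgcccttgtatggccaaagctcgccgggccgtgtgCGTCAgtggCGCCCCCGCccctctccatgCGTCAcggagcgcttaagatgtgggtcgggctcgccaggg
Nr4a2, chr2:57124004-57124253, minus strand: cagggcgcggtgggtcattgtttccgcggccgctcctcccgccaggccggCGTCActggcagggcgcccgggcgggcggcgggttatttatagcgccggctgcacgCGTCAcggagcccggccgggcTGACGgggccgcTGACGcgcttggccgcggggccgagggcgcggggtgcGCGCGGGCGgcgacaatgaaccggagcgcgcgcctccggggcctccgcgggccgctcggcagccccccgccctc
Nr4a3, chr4:48045055-48045152, plus strand: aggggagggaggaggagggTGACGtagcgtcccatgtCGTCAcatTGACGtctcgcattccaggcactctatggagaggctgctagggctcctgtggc
Srf, chr17:46556176-46556412, minus strand: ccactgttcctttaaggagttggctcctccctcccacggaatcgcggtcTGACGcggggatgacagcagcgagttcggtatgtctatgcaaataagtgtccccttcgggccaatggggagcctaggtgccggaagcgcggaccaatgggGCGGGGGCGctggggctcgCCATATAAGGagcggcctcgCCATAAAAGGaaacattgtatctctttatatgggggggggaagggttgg

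In the full 250 bases before the RefSeq start, the Egr2 window shown held 1 CArG box between 2 CRE half-sites. It is 1 of 5 RefSeq starts of Egr2, and 4 of the 5 windows held a CArG box. The windows beginning at 67537620 and 67537680 overlap the one shown and hold the same box, so the 4 count 1 site repeatedly. A different box lies in the window beginning at 67537316. The Srf window held 2 CArG boxes, which 0.0183% of 32851 promoter windows of the same length did, while 1.47% held 1 or more. The Nr4a1, Nr4a2 and Nr4a3 windows held 4 CRE half-sites each, the fourth of Nr4a3 lying beyond the run shown; 17.8% of all windows held 1 or more and 0.137% held 4 or more. An EGR site lay in the Nr4a1, Nr4a2 and Srf windows and in 4.7% of all windows. The Ier3 window held none of these motifs. The full CRE, TGACGTCA, and the NR4A element AAAGGTCA lay in no window of these genes and in 1.55% and 1.34% of all windows. Such matches are letters in a window and show no binding, and their part in the changes was not tested. The shares over all windows were not matched for G and C bases, which made up 80% of the Nr4a2 window and 74.4% of the Nr4a1 window. The map of motif positions gives their distance from the start.

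**Figure D1:**
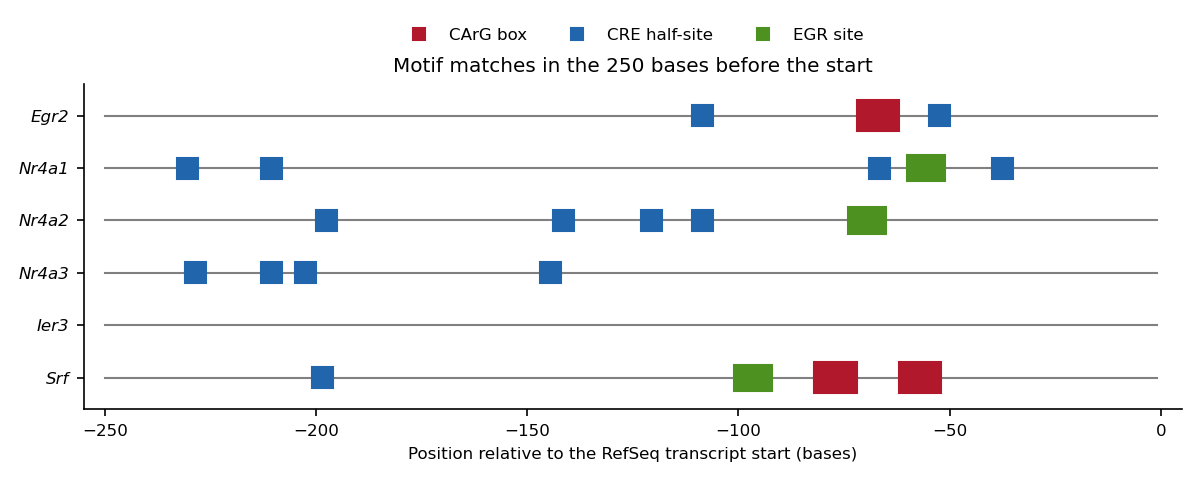
Motif matches on either strand in the 250 bases before the RefSeq transcript start of 6 early-response genes (x axis, bases from the start; red CArG boxes, blue CRE half-sites, green EGR sites). The 3 Nr4a windows hold 4 blue marks each, and the Srf window holds 2 red marks.

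Library totals ran from 8821669 to 11536396 counts, and 16039 to 16677 genes had a count. Levels are CPM (counts scaled to library size) adjusted by edgeR's trimmed mean of M-values (TMM), and changes are log2 fold changes ± SE from edgeR's quasi-likelihood test, called at a Benjamini-Hochberg adjusted p below 0.05. Mapk14 RNA did not pass the test for a difference under the KO label, at 93.8, 90 and 84.5 CPM in KO DM against 93.9, 91.2 and 88.7 CPM in WT DM (-0.03 ± 0.08, edgeR adjusted p = 0.822), and at 130, 136 and 137 CPM in KO GM against 130, 135 and 108 CPM in WT GM (0.11 ± 0.08, edgeR adjusted p = 0.35). Protein was not measured, so KO below means the label a library carries. All 8 myoblast markers were above 1 CPM in each group. Ptprc, Adgre1, Epcam, Sox10 and Rbfox3, which define leukocytes, macrophages, epithelium, Schwann cells and neurons, were at 0 in all libraries, and no endothelial marker averaged above 1 CPM in any group. Other markers of these cell types were present. Group means ran from 7.74 to 28.9 CPM for Cd14, 8.09 to 9.52 CPM for Csf1r and 1.94 to 8.32 CPM for Lyz2. For Krt14 they ran from 1.14 to 13.8 CPM and for Tubb3 from 5.77 to 49.4 CPM.

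Comparisons that share a group share its libraries. In KO-labelled cells 8 of 9 fell in DM and 0 rose by edgeR (also 0 at an unadjusted p below 0.05, by DESeq2 and by limma-voom), where 19.8% of all genes tested fell and 20.8% rose (40.6% called). In WT cells 5 of 9 fell in DM and 2 rose, where 14.8% of all genes fell and 18.4% rose (33.2% called). In DM, all 3 Egr genes fell in KO-labelled against WT cells and Nr4a1 rose, where 17.4% of all genes fell and 13.6% rose (31.0% called). In GM, Egr1 and Ier3 rose in KO-labelled against WT cells, where 10.0% of all genes rose (20.7% called in either direction). None of the 9 fell there by edgeR, where 10.6% of all genes did (2 at an unadjusted p below 0.05, 0 by DESeq2 and by limma-voom, and 2 without both GM libraries numbered 3). The interaction is the DM response of KO-labelled cells less the WT response. It was called for Egr1, Egr2 and Egr3 as lower and for Nr4a1 as higher, against 5.25% and 3.61% of all genes (8.86% called). Over all genes the interaction had 478 higher and 696 lower calls, and 683 and 498 with library totals as the only scaling. In bulk RNA, a change in the share of cells that express a gene and a change in its RNA per cell cannot be told apart.

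**Figure D2:**
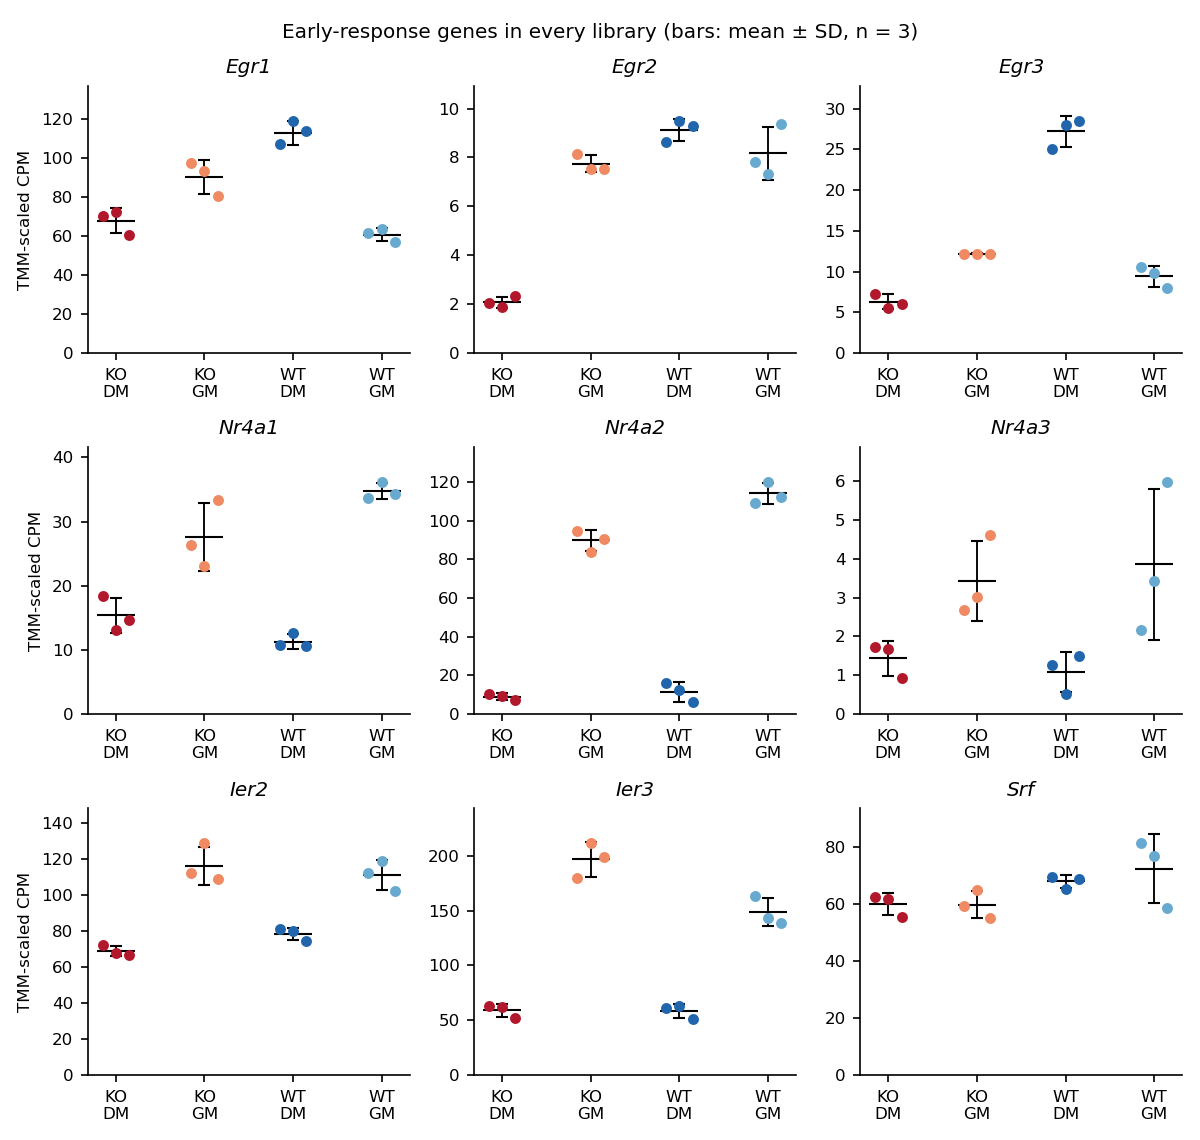
TMM-scaled CPM (y axis, from 0) of each early-response gene in every library of the 4 groups (points), with mean ± SD of 3 libraries (bars). Egr2 in KO DM (1.87 to 2.32 CPM) lies below every other group, Egr3 in WT DM (25 to 28.5 CPM) lies above, and Nr4a2 is at 16.1 CPM or less in both DM groups and at 83.7 CPM or more in both GM groups.

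Egr1, the family member best known as the growth factor sensor, moved in opposite directions in the 2 genotypes. It was at 70.4, 72.5 and 60.5 CPM in KO DM, against 97.3, 93.2 and 80.3 CPM in KO GM. WT libraries held 107, 119 and 114 CPM in DM, against 61.3, 63.5 and 57 CPM in GM. No library of KO DM overlapped KO GM or WT DM, and no library of WT DM overlapped WT GM. Egr1 fell in DM in KO-labelled cells (67.8 ± 6.42 CPM in KO DM and 90.3 ± 8.83 CPM in KO GM, SD, n = 3; -0.41 ± 0.09, edgeR adjusted p = 0.000584). In WT cells it rose (113 ± 6.14 CPM in DM and 60.6 ± 3.32 CPM in GM, SD, n = 3; 0.90 ± 0.09, edgeR adjusted p = 3.93e-08). The genotypes differed in both media and with opposite sign: Egr1 fell in KO DM against WT DM (-0.74 ± 0.09, edgeR adjusted p = 7.11e-07) and rose in KO GM against WT GM (0.57 ± 0.09, edgeR adjusted p = 4.55e-05). The interaction was -1.32 ± 0.12 (edgeR adjusted p = 1.07e-06). In order of level, WT DM was followed by KO GM, then by KO DM and WT GM, whose ranges overlapped.

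Egr2, known for its role in myelination by Schwann cells, was lower in KO DM than in the other 3 groups. It was at 2.03, 1.87 and 2.32 CPM in KO DM, from 20, 20 and 25 counts, against 8.16, 7.54 and 7.54 CPM in KO GM. WT libraries held 8.64, 9.5 and 9.28 CPM in DM and 7.82, 7.31 and 9.38 CPM in GM. The KO DM libraries lay below the other 9, and the ranges of WT DM, WT GM and KO GM overlapped between neighbours in that order. Egr2 fell 3.71-fold in DM in KO-labelled cells (-1.89 ± 0.21, edgeR adjusted p = 1.54e-07). In WT cells the change was 0.16 ± 0.17, with a 95% interval of -0.20 to 0.52 (edgeR adjusted p = 0.515). It fell 4.39-fold in KO DM against WT DM (-2.13 ± 0.20, edgeR adjusted p = 3.88e-08), while in GM the genotypes differed by -0.08 ± 0.17 (interval -0.44 to 0.28, edgeR adjusted p = 0.805). The interaction was -2.05 ± 0.27 (edgeR adjusted p = 4.93e-05).

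Egr3, which in mice is needed for muscle spindles, the stretch sensors of skeletal muscle, had the largest interaction of the 9 genes. It was at 7.3, 5.51 and 6.04 CPM in KO DM, against 12.2, 12.1 and 12.2 CPM in KO GM. In WT libraries it was at 25, 28 and 28.5 CPM in DM, against 10.5, 9.78 and 7.98 CPM in GM. No 2 groups overlapped, and the order was WT DM, KO GM, WT GM and KO DM. In KO-labelled cells Egr3 fell in DM (-0.96 ± 0.15, edgeR adjusted p = 2.82e-05) and in WT cells it rose 2.89-fold (1.53 ± 0.14, edgeR adjusted p = 1.83e-08). It fell 4.33-fold in KO DM against WT DM (-2.12 ± 0.15, edgeR adjusted p = 2.75e-10). In GM the difference was 0.37 ± 0.15 (interval 0.07 to 0.68, edgeR adjusted p = 0.078). The interaction was -2.49 ± 0.21 (edgeR adjusted p = 3.07e-07), a 5.62-fold lower response in KO-labelled than in WT cells. The Egr calls named above, with their directions, held without both GM libraries numbered 3, which had the highest Myog levels of their groups.

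**Figure D3:**
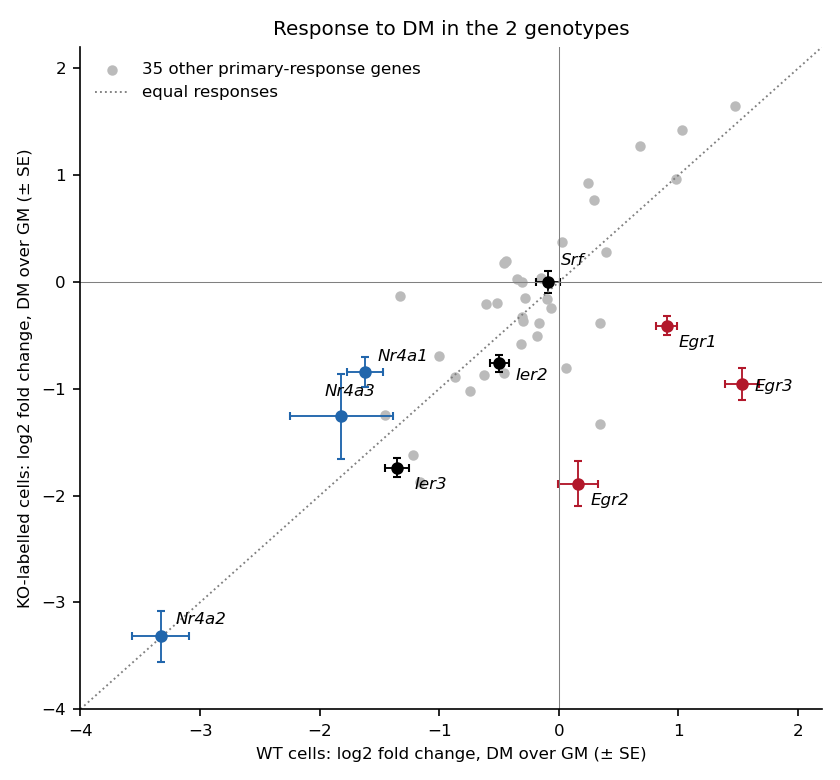
Response to DM as log2 fold change (DM over GM, ± SE) in KO-labelled cells (y axis) and in WT cells (x axis), 3 libraries a group, for the 9 early-response genes (Egr red, Nr4a blue, others black) and 35 other primary-response genes (grey). The Egr genes lie below the dotted line of equal responses, Nr4a1 lies above it (-0.84 in KO-labelled and -1.62 in WT cells), and Nr4a2 lies on it (-3.32 and -3.33).

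The Nr4a family was lower in DM than in GM in both genotypes. Nr4a1 (Nur77) is known in muscle as an activator of glucose-handling genes. It was at 18.4, 13.1 and 14.7 CPM in KO DM, against 26.3, 23.1 and 33.3 CPM in KO GM. In WT libraries it was at 10.7, 12.6 and 10.6 CPM in DM, against 33.7, 36.2 and 34.3 CPM in GM. DM and GM libraries did not overlap in either genotype, and the DM libraries were lower. Nr4a1 fell in DM in KO-labelled cells (-0.84 ± 0.14, edgeR adjusted p = 4.62e-05) and in WT cells (-1.62 ± 0.15, edgeR adjusted p = 1.34e-08). The interaction of 0.78 ± 0.20 was called (edgeR adjusted p = 0.019). In DM it was higher in KO-labelled than in WT cells (15.4 ± 2.76 CPM in KO DM and 11.3 ± 1.11 CPM in WT DM, SD, n = 3; 0.44 ± 0.15, edgeR adjusted p = 0.0325). This call rested on single libraries: it was lost without KO DM replicate 1 (0.32, edgeR adjusted p = 0.166), WT DM replicate 1 (0.42, edgeR adjusted p = 0.0855) or WT DM replicate 3 (0.41, edgeR adjusted p = 0.0923). The interaction call was lost without KO DM replicate 1 (0.66, edgeR adjusted p = 0.0647) or KO GM replicate 2 (0.68, edgeR adjusted p = 0.0525). In GM the genotypes differed by -0.33 ± 0.13 (edgeR adjusted p = 0.081), and this was called without KO GM replicate 3 (-0.50, edgeR adjusted p = 0.00889).

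Nr4a2 (Nurr1), best known from dopamine neurons, had the largest fall of the 9 genes. It was at 10.4, 9.52 and 7.06 CPM in KO DM, against 94.7, 83.7 and 90.5 CPM in KO GM. In WT libraries it was at 16.1, 12.2 and 5.99 CPM in DM, against 109, 120 and 112 CPM in GM. All DM libraries lay far below all GM libraries, and WT DM replicate 3 lay below the other DM libraries. Nr4a2 fell 9.96-fold in DM in KO-labelled cells (-3.32 ± 0.24, edgeR adjusted p = 1.9e-06) and 10.1-fold in WT cells (-3.33 ± 0.24, edgeR adjusted p = 2e-06). The interaction was 0.01 ± 0.36, with a 95% interval of -0.79 to 0.82 (edgeR adjusted p = 0.991). In DM, KO-labelled and WT cells differed by -0.33 ± 0.29 (edgeR adjusted p = 0.444). Without WT DM replicate 3 this was -0.63 ± 0.16 and was called (edgeR adjusted p = 0.00463). In GM, KO libraries lay below WT libraries without overlap (89.7 ± 5.54 CPM in KO GM and 114 ± 5.59 CPM in WT GM, SD, n = 3), and the difference of -0.34 ± 0.19 was not called (edgeR adjusted p = 0.265). It was called when only these 6 libraries were fitted (-0.35 ± 0.08, edgeR adjusted p = 0.0118) or without WT DM replicate 3 (edgeR adjusted p = 0.0138).

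Nr4a3 (Nor1) was the lowest of the 9 genes in counts, with 5 to 60 counts a library, and its changes had the widest errors. It was at 1.72, 1.68 and 0.929 CPM in KO DM, against 2.68, 3.03 and 4.61 CPM in KO GM. In WT libraries it was at 1.27, 0.511 and 1.5 CPM in DM, against 2.16, 3.44 and 5.99 CPM in GM. DM lay below GM without overlap in each genotype, and replicate 3 was the highest in each GM group. Nr4a3 fell in DM in KO-labelled cells (-1.26 ± 0.40, edgeR adjusted p = 0.0153) and in WT cells (-1.82 ± 0.43, edgeR adjusted p = 0.00194). In KO-labelled cells the call was lost without KO DM replicate 3 (-1.02, edgeR adjusted p = 0.0825), without KO GM replicate 3 (-0.98, edgeR adjusted p = 0.0809) or without both GM libraries numbered 3 (-0.97, edgeR adjusted p = 0.0503). The genotypes differed by 0.40 ± 0.48 in DM (interval -0.60 to 1.39) and by -0.16 ± 0.36 in GM (interval -0.90 to 0.58), neither of them called (edgeR adjusted p = 0.58 and 0.808).

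Ier2 and Ier3 both fell in DM in each genotype. Ier2 encodes a nuclear early-response protein. It was at 72.3, 67.7 and 66.8 CPM in KO DM, against 112, 129 and 109 CPM in KO GM, and at 80.9, 79.9 and 74.3 CPM in WT DM, against 112, 119 and 102 CPM in WT GM. The DM libraries lay below the GM libraries in each genotype. Ier2 fell in DM in KO-labelled cells (-0.76 ± 0.08, edgeR adjusted p = 1.28e-07) and in WT cells (-0.50 ± 0.08, edgeR adjusted p = 4.37e-05). The KO DM libraries lay just below the WT DM libraries without overlap, and that difference of -0.18 ± 0.08 was not called (edgeR adjusted p = 0.0961), nor was the interaction of -0.26 ± 0.11 (edgeR adjusted p = 0.175).

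Ier3 (IEX-1), a stress-induced regulator of cell survival, was at 62.8, 62.4 and 52.2 CPM in KO DM, against 180, 212 and 199 CPM in KO GM. In WT libraries it was at 60.8, 63.1 and 51.3 CPM in DM, against 163, 143 and 139 CPM in GM. The DM groups overlapped each other, while the KO GM libraries lay above the WT GM libraries. Ier3 fell 3.34-fold in DM in KO-labelled cells (-1.74 ± 0.09, edgeR adjusted p = 4.8e-12) and 2.54-fold in WT cells (-1.35 ± 0.10, edgeR adjusted p = 3.35e-10). It rose in KO GM against WT GM (0.41 ± 0.09, edgeR adjusted p = 0.00201), and in DM the difference was 0.02 ± 0.10 (interval -0.18 to 0.22, edgeR adjusted p = 0.911). The interaction was -0.39 ± 0.13 and was not called (edgeR adjusted p = 0.069; 0.0294 to 0.222 over 22 alternatives).

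Srf, the 1 gene of the 9 called in no comparison, ranged from 55.1 to 81.3 CPM over the libraries. It was at 62.4, 61.7 and 55.5 CPM in KO DM, against 59.3, 64.7 and 55.1 CPM in KO GM. WT libraries held 69.5, 65.2 and 68.7 CPM in DM, against 81.3, 76.8 and 58.4 CPM in GM. The KO DM and WT DM ranges did not overlap, with WT DM higher, and the other neighbours in the order WT GM, WT DM, KO DM and KO GM did. The response to DM was 0.00 ± 0.10 in KO-labelled cells (interval -0.21 to 0.21) and -0.09 ± 0.10 in WT cells (interval -0.30 to 0.12; edgeR adjusted p = 0.985 and 0.536). KO-labelled cells differed from WT by -0.18 ± 0.10 in DM (interval -0.39 to 0.03, edgeR adjusted p = 0.199). In GM they differed by -0.27 ± 0.10 (interval -0.48 to -0.06, edgeR adjusted p = 0.0609). The GM difference was called in 6 of 23 alternatives, among them total counts alone, no filter, a replicate block and a fit without KO GM replicate 2. WT GM replicate 3 was the lowest of its group. Without it Srf fell in KO GM against WT GM (-0.41 ± 0.09, edgeR adjusted p = 0.000982) and in WT DM against WT GM (-0.23 ± 0.09, edgeR adjusted p = 0.0428).

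**Figure D4:**
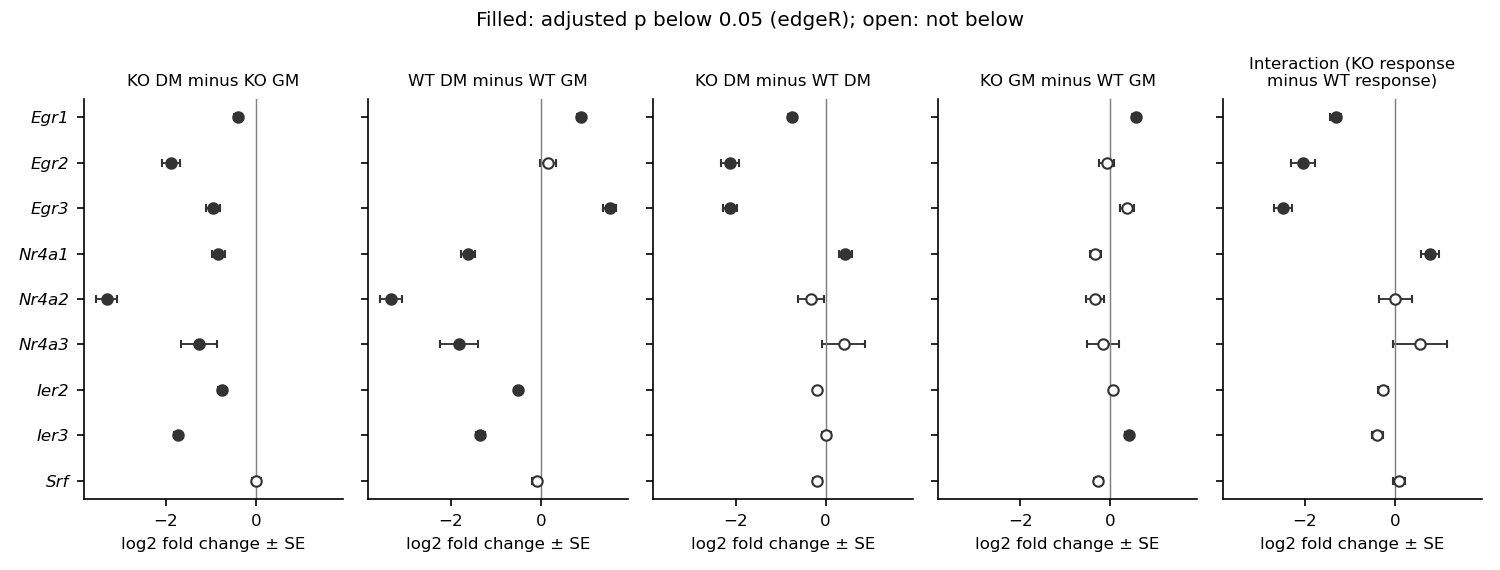
Log2 fold changes ± SE (x axis) of the 9 early-response genes in the 4 comparisons and the interaction, 3 libraries a group, with filled points for an edgeR adjusted p below 0.05. The Egr genes are filled and left of 0 in KO DM minus KO GM, in KO DM minus WT DM and in the interaction (-1.32 to -2.49), and Srf is open in every panel.

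Genes that work with or under these factors were read from the same fit, without the 9 genes themselves. Of 8 tested SRF cofactors, 3 fell and 1 rose in KO DM against KO GM, where 19.8% of all genes fell and 20.8% rose. In WT DM against WT GM 2 fell, where 14.8% of all genes did. In KO DM against WT DM 1 rose and 2 fell, where 13.6% of all genes rose and 17.4% fell. The count of 2 that fell in KO DM against WT DM was 1 without KO DM replicate 2, KO DM replicate 3, WT DM replicate 2 or WT DM replicate 3, with total counts alone and with no filter. Elk3, a ternary complex factor, fell in DM in KO-labelled cells (-0.75 ± 0.08) and in WT cells (-0.54 ± 0.08). Mrtfa, the actin-sensing myocardin-related factor, fell in both as well (-0.47 ± 0.09 and -0.46 ± 0.09).

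Of 23 SRF and MRTF cytoskeletal targets, 20 fell and 1 rose in KO DM against WT DM (median -0.58, against -0.02 over all genes), and 14 fell in KO GM against WT GM (median -0.32, against -0.00 over all genes). Of all genes 17.4% fell and 13.6% rose in the first comparison, and 10.6% fell in the second. Srf itself was called in neither, though in KO GM against WT GM it was called lower in 6 of 23 alternatives. Calponin Cnn1 fell to 0.474 ± 0.147 CPM in KO DM, against 9.58 ± 2.02 CPM in WT DM, cardiac actin Actc1 to 27.4 ± 4.72 CPM, against 445 ± 12.1 CPM, and the matricellular gene Ccn2 to 38.9 ± 1.33 CPM, against 139 ± 18 CPM (SD, n = 3). The riser was Ccn1, at 521 ± 30.7 CPM in KO DM and 348 ± 20.3 CPM in WT DM (0.58, edgeR adjusted p = 1.4e-06), named after its value was seen. In the interaction 7 of the 23 were lower and 1 higher, against 5.25% and 3.61% of all genes. The number higher was 3 without KO GM replicate 3 or both GM libraries numbered 3. It was 2 in 6 other alternatives, among them that without WT GM replicate 1. The interaction was -1.24 ± 0.14 for Tagln (transgelin) and -2.21 ± 0.46 for Cnn1. Tagln was at 298 ± 25.7 CPM in KO DM and 470 ± 42.8 CPM in KO GM, and at 626 ± 20.2 CPM in WT DM and 418 ± 65.6 CPM in WT GM. It fell in DM in KO-labelled cells and rose in WT cells, in the directions of Egr1 and Egr3. The muscle reference genes, described below, were also lower in KO-labelled cells, and their part in these counts was not tested. The actin gene Acta1 is on both lists.

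Among 15 tested EGR targets other than the Egr genes, 6 fell and 1 rose in KO DM against WT DM (median -0.14), and 9 fell and 1 rose in KO DM against KO GM (median -0.31). Of all genes 17.4% fell and 13.6% rose in the first comparison, and 19.8% fell and 20.8% rose in the second. The number that rose in KO DM against WT DM was 2 in 15 of 23 alternatives, among them those without KO DM replicate 3 or any 1 of the GM libraries. The number that rose in KO DM against KO GM was 2 without both GM libraries numbered 3. In WT DM against WT GM 8 fell and 2 rose (median -0.21), against 14.8% and 18.4% of all genes, and Egr1 and Egr3 rose there. Plau, the urokinase gene, was at 40.1 ± 0.939 CPM in KO DM and 112 ± 6.08 CPM in WT DM (SD, n = 3; -1.48 ± 0.09, edgeR adjusted p = 4.37e-11). Hbegf, an EGF-like growth factor, fell in DM in KO-labelled cells (-2.18 ± 0.12) and in WT cells (-1.22 ± 0.12; interaction -0.96 ± 0.17, edgeR adjusted p = 0.00149). Id3, an inhibitor of myogenic bHLH factors, was higher in the interaction (0.97 ± 0.11, edgeR adjusted p = 5.14e-06). Nab2, an Egr co-repressor, fell in DM in KO-labelled cells (-0.36 ± 0.08, edgeR adjusted p = 0.000767) and in WT cells (-0.21 ± 0.08, edgeR adjusted p = 0.04). The WT call was lost by DESeq2, when only these 6 libraries were fitted, and without WT DM replicate 2, WT DM replicate 3, WT GM replicate 1 or WT GM replicate 2. Of the 6 tested relatives, partners and co-repressors of the 2 families, to which Nab2 belongs, 1 rose and 1 fell in KO DM against KO GM. There 20.8% of all genes rose and 19.8% fell. In KO DM against WT DM 2 rose (1 without KO DM replicate 1 or WT DM replicate 2), where 13.6% of all genes did. Egr4, the remaining Egr gene, had too few counts to be tested.

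Of 18 tested muscle metabolic targets of NR4A receptors, 10 rose and 4 fell in KO DM against KO GM, against 20.8% and 19.8% of all genes. In WT DM against WT GM 10 rose and 3 fell, against 18.4% and 14.8% of all genes. The Nr4a genes fell in both comparisons. The muscle reference genes, described below, rose in both, and their part in these counts was not tested. In KO DM against WT DM 11 fell and 2 rose, against 17.4% and 13.6% of all genes. The number that rose was 1 without KO DM replicate 1, KO DM replicate 2, WT DM replicate 2 or WT DM replicate 3, and by DESeq2. Glycogen phosphorylase Pygm was at 15 ± 0.403 CPM in KO DM, 1.33 ± 0.963 CPM in KO GM, 54.9 ± 2.78 CPM in WT DM and 7.03 ± 2.81 CPM in WT GM. Phosphofructokinase Pfkm was lower in the interaction (-0.89 ± 0.10, edgeR adjusted p = 1.36e-05), and Pdk4, which restrains pyruvate oxidation, was higher (0.90 ± 0.22, edgeR adjusted p = 0.0139). Rxra, which encodes a heterodimer partner of Nr4a1 and Nr4a2, rose in DM in KO-labelled cells (0.59 ± 0.08, edgeR adjusted p = 2.2e-06) and in KO DM against WT DM (0.41 ± 0.08, edgeR adjusted p = 0.000287).

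Of 21 tested kinases and CREB factors that act upstream, 4 fell (2 without KO DM replicate 1) and 2 rose in KO DM against WT DM. Over all genes 17.4% fell and 13.6% rose there, and the counts of this list lie near these shares. The 2 that rose were the CREB coactivators Crtc1 (0.43 ± 0.11) and Crtc2 (0.29 ± 0.09). The number that rose was 1 without WT DM replicate 1, and 4 when only these 6 libraries were fitted or without both GM libraries numbered 3. Among those that fell were the kinase genes Rps6ka3 (RSK2), at 35.7 ± 4.2 CPM in KO DM and 68.4 ± 7.93 CPM in WT DM, and Rps6ka2 (RSK3), at 29.1 ± 2.34 and 49.7 ± 4.65 CPM. Both also fell in KO GM against WT GM, with changes of -0.46 ± 0.11 for Rps6ka3 and -0.82 ± 0.12 for Rps6ka2. Crem, a cyclic AMP-responsive factor of the CREB family, fell in DM in KO-labelled cells (-0.91 ± 0.16) and in WT cells (-1.23 ± 0.17).

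The 35 other primary-response genes gave a comparison for the 9 genes. In KO DM against WT DM 6 rose and 6 fell (median 0.01; 10 rose when only these 6 libraries were fitted, and 10 without both GM libraries numbered 3), and in the interaction 4 were higher and 2 lower (median -0.02). Over all genes 13.6% rose and 17.4% fell in KO DM against WT DM, and 3.61% were higher and 5.25% lower in the interaction. The 6 that fell and the 2 lower in the interaction lie near these shares. The 2 lower were Klf2 and Klf4, zinc finger factors of the Krüppel-like family. Klf2 was at 3.85 ± 0.707 CPM in KO DM and 9.63 ± 2.69 CPM in KO GM, and at 21.1 ± 1.49 CPM in WT DM and 16.7 ± 1.55 CPM in WT GM (interaction -1.67 ± 0.26, edgeR adjusted p = 0.000273). For Klf4 the interaction was -0.72 ± 0.17 (edgeR adjusted p = 0.00992). Btg2, an antiproliferative gene, was among the 4 higher (0.64 ± 0.17, edgeR adjusted p = 0.0196). That count of 4 depended on single libraries. It was 0 without KO GM replicate 1, KO GM replicate 2 or WT DM replicate 2, 1 without KO DM replicate 1, and 2 without KO DM replicate 2, KO DM replicate 3 or WT GM replicate 2. It was 8 without KO GM replicate 3 and 10 without both GM libraries numbered 3, while the count of 2 lower was 2 or 3 in all alternatives. Of the 35 genes 14 fell and 7 rose in KO DM against KO GM, where 19.8% of all genes fell and 20.8% rose. In WT DM against WT GM 15 fell and 5 rose, where 14.8% of all genes fell and 18.4% rose. Maff, a small Maf factor, fell in DM to 45.7 ± 11.4 CPM in KO DM, against 140 ± 9.99 CPM in KO GM, and to 54.9 ± 5.83 CPM in WT DM, against 128 ± 5.27 CPM in WT GM (SD, n = 3).

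The genes most like each of the 9 were found by Pearson's r of log2 CPM over the 12 libraries. These fall into 4 groups, so r mainly reads the spacing of the group means, and the order of the groups can differ. Egr2 was closest to Gas2 (0.995), Car12 (0.982) and Pfkp (0.980). Car12 was at 0.984 ± 0.207 CPM in KO DM and 8.59 ± 0.502 CPM in KO GM, and at 8.83 ± 1.18 CPM in WT DM and 7.42 ± 0.871 CPM in WT GM (SD, n = 3). Nr4a2 was closest to the thrombomodulin gene Thbd (0.995), Ugdh (0.994) and the serum- and glucocorticoid-regulated kinase gene Sgk1 (0.987). Egr1 was closest to Fam111a (0.917), Arhgdig (0.915) and Mboat2 (0.890), and Egr3 to Mtcl1 (0.948), Prkab2 (0.944) and Thop1 (0.943). Nr4a1 was closest to the adenylyl cyclase gene Adcy6 (0.973), Zfp52 (0.965) and Zbtb38 (0.955), and Nr4a3 to Gda (0.920), Plekha5 (0.917) and Lhfp (0.912). For Ier2 they were Ccdc85b (0.989), Foxc2 (0.986) and Gpd2 (0.986), for Ier3 Iffo2 (0.988), the cyclin D1 gene Ccnd1 (0.986) and Tsc22d1 (0.986), and for Srf Trabd (0.924), Bysl (0.924) and Ddx39b (0.922).

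Muscle differentiation moved with the same groups. All 8 muscle reference genes rose in DM in both genotypes, where 20.8% of all genes rose in KO-labelled and 18.4% in WT cells. All 8 fell in KO GM against WT GM and 7 of 8 in KO DM against WT DM, against 10.6% and 17.4% of all genes. Myog was at 299 CPM in KO DM and 615 CPM in WT DM, and Myh3, embryonic myosin, at 64.8 and 856 CPM in these groups. Egr3 rose with these genes in WT cells and fell in KO-labelled cells, in which they rose as well. By mean level, WT DM was the highest group for Egr3 and for all 8 muscle genes. Myh3 in KO DM was near its WT GM level of 64.2 CPM, while Myog in KO DM was above its WT GM level of 163 CPM. The part of the differentiation state in the Egr and Nr4a results was not tested. Of the neural and Schwann cell list, 1 of 8 markers was above 1 CPM, Tubb3, and the summed level ran from 6.41 to 7.5 CPM in KO DM, and 14.5 to 18.6 CPM in KO GM. In WT libraries it ran between 50.2 and 51 CPM in DM and between 45.1 and 55 CPM in GM. Their part in the results was not tested. Of the epithelial list 1 of 8, Krt14, was above 1 CPM, with sums of 13.4 to 14.4 CPM in KO DM and 0.898 to 4.9 CPM in the other groups. Of the macrophage and leukocyte list 3 of 8 were above 1 CPM, Cd14, Csf1r and Lyz2. The sums were 31.2 to 38.3 CPM in KO DM, and 37.3 to 44.4 CPM in KO GM. The WT sums lay between 18 and 20.9 CPM in DM and between 31.9 and 44.4 CPM in GM.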

How the data were processed

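The authors deposited integer counts per Ensembl gene, not normalized, in a table whose other 4 columns were empty and not used. The submitters' processing notes name GRCm39, STAR 2.7.1a, RSEM 1.3.3, DESeq2 1.40.2 and R 4.3.1. Which of these made the counts, from which annotation and with or without strand, is not given in the sources used here. A symbol was found for 52083 of 55416 genes. In GENCODE M21 no exon of another gene overlaps an exon of the 9 genes.

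edgeR 4.0.16 (R 4.3.3) was run on the counts as deposited. filterByExpr left 13250 genes holding 99.9% of counts, TMM scaled the libraries, and 1 robust quasi-likelihood model with a mean per group was fitted to all 12 libraries. The procedure was tested on simulated counts drawn with the fitted spread, with changes added in WT DM alone. Recovery was required only for log2 changes of 1 or more in WT DM against WT GM. Smaller changes and the interaction were not held to this. Tests were 2-sided, and p was adjusted over all genes of each comparison. SE was taken as the log2 fold change over the root of the F statistic, and intervals are 95%. Depth limits Nr4a3 most. Reads carry no molecular identifiers, so PCR copies are not told apart.

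The members, gene lists and tests were chosen with earlier results of these data known. Beside the 9 genes and Mapk14, a rule chose up to 4 called genes of each list per comparison, by size of change where the higher mean reached 5 CPM (or the 2 highest genes where none was called), the 8 muscle genes, and the 3 genes nearest each member by r (prior count 2). The text names a part of these. Alternatives were other scalings, filters and tools (DESeq2 1.42.0, limma 3.58.1), a replicate block and left-out libraries.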

Additional observations from a re-analysis of the deposited data

Results flagged for a closer look

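For 4 genes the response to DM differed between KO-labelled and WT cells by the test of the difference itself (edgeR's quasi-likelihood interaction). The interaction was -1.32 for Egr1, -2.05 for Egr2, -2.49 for Egr3 and 0.78 for Nr4a1. The 3 Egr values kept their sign and their call under all 22 alternatives that gave an interaction, ranging from -1.38 to -1.22 for Egr1, from -2.16 to -1.95 for Egr2 and from -2.58 to -2.35 for Egr3. The Nr4a1 value ranged from 0.66 to 0.98 and lost its call in 2 of 22.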

How the results depend on the processing

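Every call named for Egr1, Egr2 and Egr3 held in all alternatives, with its direction. Members lower in KO GM against WT GM numbered 0, but 1 with total counts alone, with no filter, with a replicate block or with only the 6 libraries compared, and 2 without both GM libraries numbered 3. Leaving out 1 library gave 0 to 1 there, 0 to 1 for members higher in KO DM against WT DM (0 with limma-voom) and 0 to 1 for members higher in the interaction. Fits without both GM libraries numbered 3 reversed uncalled changes to 0.04 for Egr2 and 0.03 for Nr4a3 in KO GM against WT GM, and to -0.03 for Srf in KO DM against KO GM. Mapk14 in KO DM against WT DM was 0.01 with total counts alone. Leaving out 1 library also reversed uncalled changes. In KO GM against WT GM the ranges were -0.16 to 0.03 for Egr2, -0.46 to 0.30 for Nr4a3 and -0.01 to 0.12 for Ier2. In KO DM against WT DM they were -0.63 to 0.00 for Nr4a2, -0.05 to 0.11 for Ier3 and -0.04 to 0.02 for Mapk14. The Nr4a2 interaction ranged over -0.28 to 0.35, and Srf in KO DM against KO GM over -0.05 to 0.07. The causes were not tested.

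Same-numbered libraries deviated together with r of -0.09 to 0.19, highest for replicate 3 of KO GM and WT GM. The numbers were not taken as pairs. A replicate block gave more calls over all genes in each comparison. In the interaction it gave 666 higher and 921 lower, against 478 and 696 without it. A shared source of same-numbered libraries was not tested. With the replicate block 1 member, Srf, was lower in KO GM against WT GM (-0.27, edgeR adjusted p = 0.0303), and the Ier3 interaction was called (-0.39, edgeR adjusted p = 0.0303). Of 1824 counts of called genes in lists under alternatives, 122 moved by over 1.5 times, a move off 0 included.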
